A study of Citrus trifoliata with 6 samples.

Results

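The lateral roots described here came from plants of Poncirus trifoliata (syn. Citrus trifoliata), a citrus rootstock, that received no fungal inoculum. They form the control group of a series on arbuscular mycorrhiza, and they are 3 of its 6 RNA-seq libraries. The other 3 libraries came from roots colonized by the fungus Glomus versiforme (Gv) and appear below only where a value is set beside a control library. All plants of both groups were grown in sterile quartz sand, 8 plants per pot, with a nutrient solution of 20 μM phosphorus, and non-woody lateral roots were taken when the colonized plants had reached 3 months post-inoculation (mpi). Each biological replicate pooled at least 9 plants from different pots, so a library averages over plants, and it also averages over all cell types of the root. In such bulk samples fewer cells of a type and less RNA per cell cannot be told apart. The libraries are called control 1, control 2 and control 3 after their replicate numbers in the labels. They were chosen by the labels alone, and every gene with at least 1 read in at least 1 of them was described, which gave 21672 of the 22589 genes listed in the series.

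A fine root takes up water through aquaporins of the plasma membrane (PIP) and the vacuolar membrane (TIP), and phosphate through proton-coupled transporters of the PHT1 family. When phosphate is scarce, plants raise these transporters together with SPX domain proteins, which bind inositol pyrophosphates as a signal of phosphate status, with secreted acid phosphatases, and with enzymes that replace phospholipids by galactolipids and sulfolipids. The carbon for this comes as sucrose from the shoot, which root cells cleave, respire or store as starch, and the root surface is held against microbes by peroxidases, germin-like proteins, chitinases and other wall and defence proteins. Levels are given as RPKM, the reads of a gene divided by its listed length and by the library total on genes. Levels of different genes can be compared only as far as the listed lengths match the transcripts. Whether the listed lengths include introns could not be checked. Gene descriptions are the best Blast match that the files give, or the first KEGG match where the Blast text names no function, and such a match does not show orthology.

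Control 3 stood apart from the other control libraries, so most values are given for each library or with and without control 3. Where only a mean is given, it includes control 3. Between 4.51 M and 4.71 M reads (M, 1e6) lay on genes in each library. Over the 16102 genes with a mean of at least 10 reads, log2(RPKM + 0.5) correlated across genes with r = 0.978 between controls 1 and 2, but with 0.894 and 0.879 between control 3 and controls 1 and 2. These coefficients describe the libraries and share the same genes and lengths. Levels at least 2-fold apart (on RPKM + 0.5) were found for 322 genes (2.00%) between controls 1 and 2, and for 2214 genes (13.7%) between controls 1 and 3. To see whether a library had been deposited more than once, the read counts of each pair were compared. The chi-square per degree of freedom was 8.28 for controls 1 and 2, 35.9 for 1 and 3 and 47.4 for 2 and 3. Counting error alone would give about 1 and an exact copy less, so each library was counted as a sample. Separate pools of plants differ by more than counting error in any case. The common biological coefficient of variation estimated by edgeR was 30.2% over the 3 libraries and 14.1% without control 3. The labels name no batch for these libraries.

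**Figure D1:**
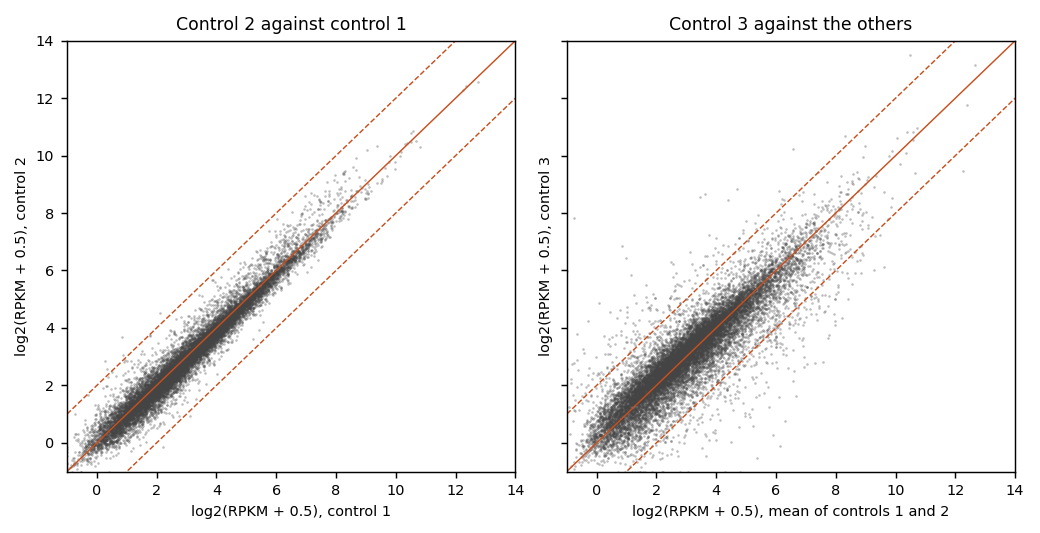
Each point is 1 of 16102 genes with a mean of at least 10 reads, placed by log2(RPKM + 0.5) in control 1 and control 2 (left panel) and in the mean of controls 1 and 2 and control 3 (right panel). The solid line marks equal levels and the dashed lines a 4-fold difference; the cloud is narrow for controls 1 and 2 and wide on both sides of the line for control 3.

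A read was found in all 3 control libraries for 18876 genes, in 2 of them for 1350 and in only 1 for 1446. Levels spanned a wide range around a median of 4.43 RPKM. The mean over the libraries reached 1 RPKM in 16106 genes (74.3%), 10 RPKM in 6598 genes (30.4%), 100 RPKM in 493 genes (2.27%) and 1000 RPKM in 13 genes. The 493 genes of at least 100 RPKM held 38.1% of the summed RPKM. The root transcriptome was not dominated by a few genes. The 25 most abundant genes held 12.2% ± 1.46 of the summed RPKM (SD, n = 3), and 1018 genes (4.70% of all) were needed to reach 50%. These figures depend on the gene lengths in the files, which had a median of 3013 bases. Among the 490 genes with at least 1000 reads in every control library, a median of 63.4% of the listed length was covered by reads, and 101 of them were covered over less than 50%. With RPKM taken over the covered part alone, an alternative chosen after seeing the data, 1739 genes were needed to reach 50%. A count of 3 reads, taken as the limit that 0 reads allow, is 0.211 to 0.221 RPKM for a gene of median length.

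Many of the most abundant transcripts came from genes whose descriptions name no function, at a share no higher than over all genes. Of the 25 most abundant genes, 10 (40%) had no text that names a function, against 42.9% of all genes. Over the 100 and 1000 most abundant genes that share was 32% and 33.4%. Cs3g21160 was the most abundant gene, with 6850.4, 6083 and 9111 RPKM in controls 1, 2 and 3. Its neighbour by identifier, Cs3g21170, had 1627, 1461 and 1789 RPKM and the same best Blast match, a hypothetical protein of grape. Reads shared by near-identical copies are lost when only uniquely aligned reads are counted, so the levels of such neighbours are uncertain. Cs2g16860 and Cs2g16830, both matched to hypothetical proteins, had 5212, 5458 and 3478 RPKM and 4852, 4986 and 702 RPKM. Cs2g16830 was thus among the highest genes of controls 1 and 2 and far lower in control 3. The opposite was seen for orange1.1t05863, a gene of 1493 bases without any Blast match, at 1447, 1418 and 11508 RPKM. In control 3 it was the highest gene and alone took 1.72% of the reads.

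Among the abundant genes that carry a description, housekeeping and protective proteins led. The polyubiquitin-type gene Cs6g11770 (ubiquitin C), which supplies the tag for protein degradation, was at 1521, 1839.8 and 1993 RPKM in controls 1, 2 and 3. Cs2g03110, a class III peroxidase of the kind secreted to the cell wall, was at 1815, 1269 and 1489 RPKM. The metallothionein-like gene Cs8g18470, whose product binds metal ions through cysteines, was at 1313, 1372 and 1831 RPKM. These genes stayed within the same order of magnitude in every library, and none was set apart in control 3 by as much as 2-fold. Cs7g23510, a DnaJ co-chaperone that works with HSP70, had a mean of 1238 ± 137 RPKM (SD, n = 3), and Cs5g32800, a phi-class glutathione S-transferase that conjugates glutathione to toxic compounds, had 1041 ± 178 RPKM. Cs5g04630, annotated as a rhicadhesin receptor, a name given to a germin-like wall protein, had 922 ± 76.3 RPKM.

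Other abundant genes differed by library. The aquaporin PIP2.1 gene Cs8g16640 had 1004, 733 and 222 RPKM in controls 1, 2 and 3, while the vacuolar aquaporin TIP1-1 gene orange1.1t03005 had 749.8, 577 and 626 RPKM. The first was lower in control 3 than in both others by over 2-fold, the second lay within the range of the others. The dehydrin Cs3g26970, a protein known to protect cells during water loss, had 890.2, 1013 and 366 RPKM, and the CCCH zinc finger gene Cs7g31000 had 529, 1171 and 68.3 RPKM. Higher in control 3 were the O-methyltransferase Cs2g16040 with 544, 474 and 1299 RPKM and Cs2g13910, a glycerophosphodiester phosphodiesterase (GDPD), with 281, 357 and 1649 RPKM. The last enzyme releases glycerol-3-phosphate from deacylated phospholipids. The remaining genes of the 25 were Cs7g25130, Cs2g30010, Cs5g24520, Cs7g30280 and Cs1g04550, whose texts name no function, the translationally controlled tumor protein Cs9g04300, a stress-related protein Cs9g03630 and the peroxidase 3-like gene Cs5g32270, with means from 558 to 1298 RPKM.

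**Figure D2:**
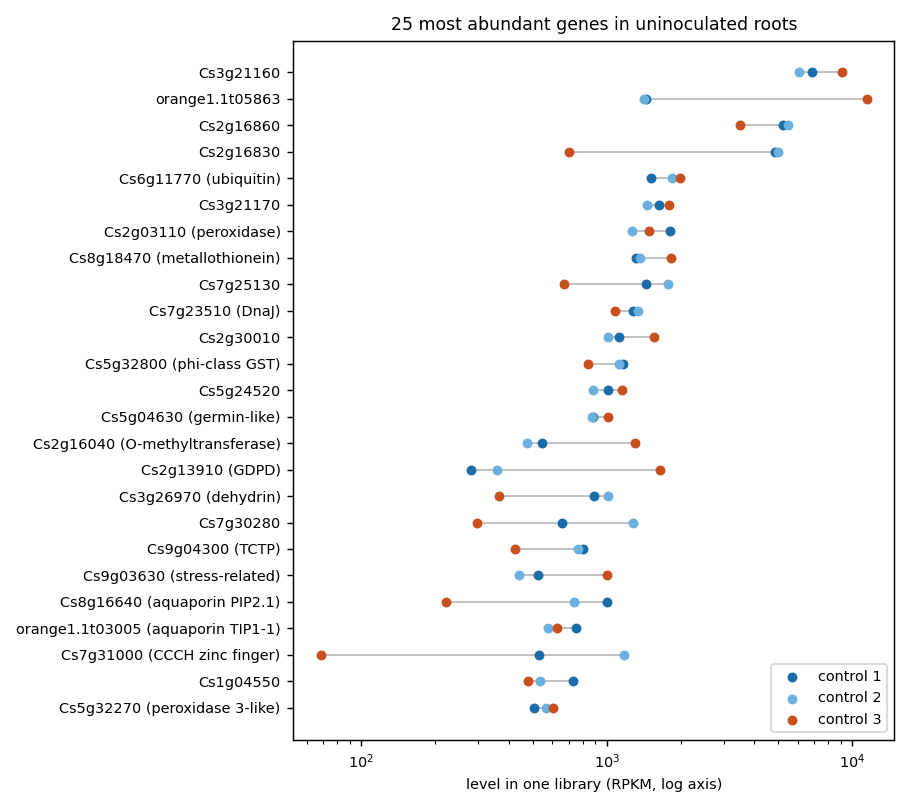
Level of each of the 25 most abundant genes (by mean RPKM) in control 1, control 2 and control 3, on a log axis; a grey line joins the lowest and the highest library. Most genes sit close together in the 3 libraries, while orange1.1t05863 and the GDPD gene are far higher in control 3 and Cs2g16830, the CCCH zinc finger gene and PIP2.1 are far lower.

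The labelled tissue was checked against markers. Single root markers were read, while the shares of most root lists were below that of the photosynthesis list. Casparian strip and suberin genes held a mean of 0.0588% of the summed RPKM (median member 2.76 RPKM). Root hair and epidermis genes held 0.0221% (0.922 RPKM) and meristem and cap genes 0.0296% (8.99 RPKM). Secondary xylem genes held 0.101% (41.3 RPKM), against 0.0798% for the photosynthesis list. In control 3 the order was reversed, with 0.0608% for xylem and 0.0760% for photosynthesis, so shares alone do not tell the tissue. SHORT-ROOT, a transcription factor that patterns the root endodermis, was matched by Cs1g21500 at 58.0, 58.1 and 50.7 RPKM in controls 1, 2 and 3, and the CASP-like gene Cs2g10390, of the family that builds the Casparian strip, was at 45.8, 36.8 and 26.9 RPKM. Genes described as xylem serine proteinases were Cs1g21970 at 158, 123 and 109 RPKM and Cs3g15800 at 163, 157 and 22.1 RPKM. Genes with root, endodermis and xylem descriptions were thus read in every library, with Cs3g15800 low in control 3. The phloem protein gene Cs7g16020 (PP2-A2) had 62.5, 143 and 16.8 RPKM, and the COBRA gene Cs5g12210, needed for oriented growth of root cells, 63.5, 45.1 and 61.6 RPKM. Shoot markers were mostly low. The 38 genes of the photosynthesis list together held 0.0897%, 0.0739% and 0.0760% of the summed RPKM, with a median member of 1.98 RPKM, and 1, 1 and 9 of them had no read. The 14 light-harvesting genes among them summed to 43.6, 22.9 and 22.1 RPKM. Of the 24 photosynthesis genes with a mean of at least 10 reads, 6 were at least 2-fold below and 1 above in control 3, and of 18 Casparian strip and suberin genes 4 and 0, and the part of cell type make-up in the values of control 3 was not tested. The highest member of the photosynthesis list was a Rubisco small chain gene, Cs4g03580, at 99.6, 99.9 and 118 RPKM.

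Functional lists were made from the gene descriptions, and together they held 2482 genes (11.5%) with 21.4% of the summed RPKM. The shares depend on how levels and lists are defined: of the 59 list shares, 20 moved by over 1.5 times when reads were not divided by length and 10 when only Blast text was searched. Water transport genes were among the highest of these lists by median level. The 11 PIP genes had a median level of 71.7 RPKM and the 8 TIP genes one of 104 RPKM, against 4.43 RPKM over all genes. PIP genes held 0.700%, 0.514% and 0.188% of the summed RPKM in controls 1, 2 and 3, and TIP genes 0.613%, 0.472% and 0.320%. Both shares were lowest in control 3. Over all genes with a mean of at least 10 reads, control 3 was at least 2-fold above both other libraries in 4.01% of genes and at least 2-fold below both in 5.99%, and list counts are to be read against these shares. The median difference of control 3 from the mean of the others was 0.07 on the log2 scale, which is small beside 2-fold. Among PIP genes with that many reads, 6 of 9 were at least 2-fold below in control 3, and among TIP genes 4 of 6. Behind Cs8g16640, the PIP1 genes Cs7g31410 and Cs7g31420 had 533, 411 and 96.6 RPKM and 369, 290.2 and 119.5 RPKM. The TIP2-2 gene Cs5g08710 had 738, 548 and 146 RPKM and was lower in control 3 than TIP1-1 was. Aquaporins of the NIP and SIP groups were scarce, the highest being Cs5g26100 (SIP1.2) with 15.0 ± 1.92 RPKM (SD, n = 3).

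Genes of phosphate nutrition were present at all levels, and several were highest in control 3. Among the 13 genes annotated as phosphate transporters or PHO1-like exporters, 4 reached 10 RPKM, and control 3 was the highest library in 6 of the 8 with a mean of at least 10 reads, against 47.4% of all genes with that many. At 2-fold, 2 of the 8 were above and 0 below in control 3. Cs9g10540 had 68.0, 91.3 and 160.3 RPKM in controls 1, 2 and 3, and Cs5g29860 had 21.8, 38.5 and 111 RPKM. The PHO1-like gene Cs9g09780, of the family that loads phosphate into the xylem, had 23.2, 23.8 and 37.6 RPKM. All of these were highest in control 3, while the fourth, Cs3g27650, had 23.5, 15.6 and 9.48 RPKM and was lowest there. The SPX domain gene Cs4g17870 (SPX domain protein 2) had 100.5, 144 and 428 RPKM, and orange1.1t00194 (SPX domain protein 3) had 24.7, 35.1 and 156 RPKM. In control 3 they were at 3.50 and 5.22 times the mean of controls 1 and 2.

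Acid phosphatases, which free phosphate from organic esters, numbered 16. The highest was Cs2g17980 at 325, 349 and 459 RPKM, with less than 2-fold between the libraries. It held 67.0% of the level of the list. The list share of 0.168% depends on KEGG text, as it was 0.0555% with Blast text alone. The purple acid phosphatase genes Cs3g25470 and Cs8g08070 had 3.04, 3.29 and 36.0 RPKM and 5.65, 6.57 and 22.0 RPKM. Control 3 was at least 2-fold above both other libraries in 5 of the 13 members with enough reads and below in 0. Among the 8 enzymes of lipid remodelling it was above in 3 and below in 0. The members above were the abundant GDPD gene Cs2g13910, a further GDPD gene, Cs5g11990, at 7.47, 7.86 and 31.5 RPKM, and Cs4g18400, a UDP-sulfoquinovose synthase of sulfolipid synthesis, at 8.74, 8.57 and 41.9 RPKM. A galactolipid synthesis gene was even, with 16.0, 16.5 and 13.8 RPKM for the digalactosyldiacylglycerol synthase orange1.1t00318. The share of the lipid list was 0.111%, 0.129% and 0.548%, so that its mean of 0.263% rests on control 3 and is 0.120% without it. It is mostly the share of Cs2g13910, which held 87.7% of the level of the list. Control 3 was the highest library in 4 of the 8 members and the lowest in 4. The median log2 difference of control 3 from the mean of the others was 0.0167. Cs1g18540, a phosphoethanolamine/phosphocholine phosphatase named after its values were seen, had 68.1, 129 and 1192 RPKM, and was in control 3 at 12.1 times the mean of the others.

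Genes of nitrate assimilation differed less. Nitrate reductase, the entry step of nitrate assimilation, was matched by Cs3g19060 at 296, 377 and 272 RPKM in controls 1, 2 and 3, nitrite reductase by Cs8g05970 at 139.9, 153 and 110.3 RPKM, and cytosolic glutamine synthetase by Cs6g17430 at 102, 119 and 109 RPKM. None of the 12 assimilation genes was 2-fold above or below in control 3. Uptake genes were far lower in level: the nitrate transporter gene Cs6g16750 had 33.4, 22.1 and 78.5 RPKM and the highest ammonium transporter gene, Cs6g08950, 11.0, 11.2 and 23.1 RPKM. Both were highest in control 3, which was at least 2-fold above both others in 6 and below in 4 of 27 nitrate and peptide transporter genes. The highest amino acid transporter gene, Cs3g20070, had 219, 403 and 61.8 RPKM and differed in each library, and 6 of 33 such genes were at least 2-fold below in control 3 and 0 above. For sulfur, the sulfate transporter Cs1g13600 had 42.4, 40.5 and 243 RPKM, high in control 3, and ATP sulfurylase (Cs9g07750) 174, 137 and 195 RPKM, in a list with 3 of 17 members 2-fold above and 0 below in control 3. For metals, nicotianamine synthase, which makes a chelator of iron and zinc, was matched by Cs3g15140 at 111, 118 and 103 RPKM and was even. Other metal genes were not: 6 of 23 were at least 2-fold below in control 3 and 0 above, with 5 of them 4-fold below and 4 also 2-fold below in Gv 3. Yet control 3 was the highest library in 14 of the 23 and the lowest in 9. The share of the metal list was 0.156%, 0.162% and 0.163%. Potassium genes were led by the outward rectifying channel Cs4g08860 at 37.4, 38.6 and 39.6 RPKM. Proton pumps, which energize such uptake, held 0.224% ± 0.0366 of the summed RPKM (SD, n = 3), led by the vacuolar pyrophosphate-driven pump orange1.1t01399 at 78.2, 64.3 and 245 RPKM.

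The highest single gene of the carbon lists was a sucrose synthase, though the glycolysis list held a larger share. Cs4g06850, which cleaves sucrose with UDP, had 402, 353 and 649 RPKM in controls 1, 2 and 3, and Cs5g33470 had 119, 137 and 84.3 RPKM. The 12 invertase genes, which hydrolyse sucrose, together held 0.0224% ± 0.00150 of the summed RPKM (SD, n = 3), against 0.177% ± 0.0452 for the 7 sucrose synthase genes, and their highest member, the cell-wall invertase Cs1g18220, had 18.7 ± 3.37 RPKM. Glycolysis held 0.478% ± 0.0775, with the aldolase Cs6g15430 at 338, 306 and 407 RPKM. Sugar transporter genes, 41 in number, held only 0.0900% ± 0.00395, and none reached a mean above 34.0 RPKM, the level of Cs1g23910. Genes of low-oxygen metabolism were also read, with hemoglobin I (Cs5g28410) at 263, 254 and 224 RPKM and the alcohol dehydrogenase Cs3g20830 at 192, 283 and 96.4 RPKM.

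Starch genes showed one of the widest spreads of the lists. They held 0.141%, 0.145% and 0.389% of the summed RPKM in controls 1, 2 and 3, a mean of 0.225% that falls to 0.143% without control 3. Cs8g07230, a large subunit of ADP-glucose pyrophosphorylase, the committed step of starch synthesis, had 9.25, 11.7 and 376 RPKM. A second ADP-glucose pyrophosphorylase gene, Cs2g18800, had 39.6, 39.9 and 175 RPKM, and the granule-bound starch synthase orange1.1t00566 had 80.2, 73.5 and 349 RPKM. In the first of these the level in control 3 was 35.9 times the mean of the others, a larger ratio than for any other gene of the list with at least 10 reads. Starch-degrading enzymes did not follow a single direction, as the beta-amylase genes orange1.1t03470 and Cs2g22040 had 74.0, 138 and 28.4 RPKM and 56.0, 43.2 and 72.5 RPKM. Control 3 was at least 2-fold above both others in 7 and below in 3 of 27 members. Cs2g07720, a plastid glucose-6-phosphate translocator that feeds carbon into starch, was named after its values were seen and had 7.83, 18.1 and 404 RPKM.

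Some cell wall lists differed in the same library in the opposite direction. Xyloglucan endotransglucosylase (XTH) genes, whose products cut and rejoin xyloglucan in growing walls, held 0.472%, 0.550% and 0.166% of the summed RPKM in controls 1, 2 and 3, and 11 of 17 members were at least 2-fold below in control 3. Cs4g03200 had 243, 361 and 152 RPKM and Cs4g03130 had 136, 335 and 12.1 RPKM. Expansins, which loosen walls, held 0.147%, 0.161% and 0.0405%, with the beta-expansin Cs8g01880 at 279, 418 and 53.4 RPKM. Cellulose synthases were even, with 0.181% ± 0.0138 of the summed RPKM (SD, n = 3) and 91.9, 84.3 and 85.8 RPKM for Cs7g05150. Lignin and phenylpropanoid enzymes held 0.519% ± 0.0520, led by the cinnamate 4-hydroxylase Cs1g08620 at 236, 205 and 259 RPKM, and pectin-modifying enzymes 0.333% ± 0.0518, with the pectinesterase Cs1g16550 at 174, 187 and 167 RPKM. Among wall structural proteins, the proline-rich protein gene Cs6g11570 had 506, 359 and 259.9 RPKM and the fasciclin-like arabinogalactan protein gene Cs2g19350 232, 203 and 222 RPKM, the first lowest in control 3 and the second even.

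Redox lists took large shares, with a median member of 7.16 RPKM for class III peroxidases and 8.50 RPKM for glutathione S-transferases. Those of the cytochrome P450, flavonoid and terpenoid lists were at 3.07, 2.63 and 0.457 RPKM, below the 4.43 RPKM over all genes. The 60 class III peroxidase genes held 1.04% ± 0.0998 of the summed RPKM (SD, n = 3), of which 43.7% came from Cs2g03110 alone. Glutathione S-transferases held 0.889% ± 0.0708 and the 177 cytochrome P450 genes 0.916% ± 0.159, with Cs3g21580 (family 83) at 414, 315 and 317 RPKM. Germin-like proteins held 0.534% ± 0.101, with Cs6g01660 at 509, 357 and 602 RPKM behind the rhicadhesin receptor gene. Catalase (Cs3g27280), which breaks down hydrogen peroxide, was at 579, 438 and 521 RPKM. In cytochrome P450 genes control 3 was at least 2-fold above both others in 18 and below in 11 of 119 members. The same counts were 6 and 0 of 42 for glutathione S-transferases, 3 and 1 of 10 for germin-like proteins and 3 and 7 of 48 for class III peroxidases. Flavonoid enzymes held 0.222% ± 0.0129 and terpenoid enzymes 0.133% ± 0.0121, the latter with the beta-farnesene synthase Cs4g12450 at 81.4, 78.0 and 62.0 RPKM.

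Defence genes were present without inoculation. Chitinases and beta-1,3-glucanases, 49 genes, held 0.215% ± 0.0342 of the summed RPKM (SD, n = 3), with the chitinase Cs1g26330 at 171, 346 and 76.4 RPKM. That member was lowest in control 3, but at 2-fold more members were above in control 3 (10 of 35) than below (5), and 7 of those above were 2-fold above in Gv 3 as well. Pathogenesis-related and protease-inhibitor genes held 0.450%, 0.484% and 0.261% in controls 1, 2 and 3, and 12 of their 26 members were at least 2-fold below in control 3. One of these was the miraculin-like gene Cs5g13890, of a family of protease inhibitors, at 218, 221 and 13.0 RPKM. The 411 resistance genes (NBS-LRR), receptors of pathogen effectors, were numerous but low, with a median of 0.778 RPKM and 0.382% ± 0.0243 of the summed RPKM. Of 221 with enough reads, 5 were 2-fold above and 6 below in control 3. Dehydrins and late embryogenesis abundant (LEA) proteins were few and high, with a median of 189.7 RPKM over 9 genes and shares of 0.718%, 0.838% and 0.369%. Behind the dehydrin Cs3g26970, Cs5g27060 (COR15) had 445, 491 and 246 RPKM and the Lea14-A gene Cs4g10930 had 259, 540.5 and 45.2 RPKM. Each of the 8 members with a mean of at least 10 reads was lowest in control 3, against 36.8% of all genes, 3 of them by at least 2-fold.

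Hormone genes were broad in level. Genes annotated with abscisic acid or ethylene held 0.860%, 1.03% and 0.726% of the summed RPKM in controls 1, 2 and 3, led by Cs1g07950, an ERF4-like repressor of ethylene responses, at 383, 775 and 177 RPKM, and by the EIN3-like gene Cs3g06930, a central transcription factor of ethylene signalling, at 285, 328 and 159 RPKM. Auxin-annotated genes held 0.587%, 0.511% and 0.535%, led by the auxin-repressed gene Cs2g05690 at 504, 455 and 253 RPKM. These 3 genes were all lowest in control 3, while the lists themselves had 5 above and 6 below of 59 members, and 5 above and 8 below of 67, at 2-fold.

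The machinery of translation and growth was even. Cytosolic ribosomal proteins held 3.14% ± 0.222 of the summed RPKM (SD, n = 3), more than any other list, and of 163 genes with enough reads control 3 was 2-fold above both others in 1 and below in 3. The 60S protein gene Cs6g11320 (L27) had 287, 269 and 278 RPKM. Ubiquitins and proteasome subunits held 1.37% ± 0.113, heat shock proteins and DnaJ 1.06% ± 0.0369 and histones 0.515% ± 0.0331, the last with a H2B gene, Cs8g18010, at 363, 386 and 381 RPKM. With Blast text alone, which finds fewer members, the ubiquitin share was 0.552% and the heat shock share 0.642%, and without division by length histones held 0.231%. Among tubulins and actins, and among histones, no member was 2-fold above or below in control 3, out of 29 and 25. Cell division genes were low. The cyclins and replication genes had a median of 1.90 RPKM, led by the D1-type cyclin Cs7g08180 at 50.5, 45.7 and 32.6 RPKM.

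**Figure D3:**
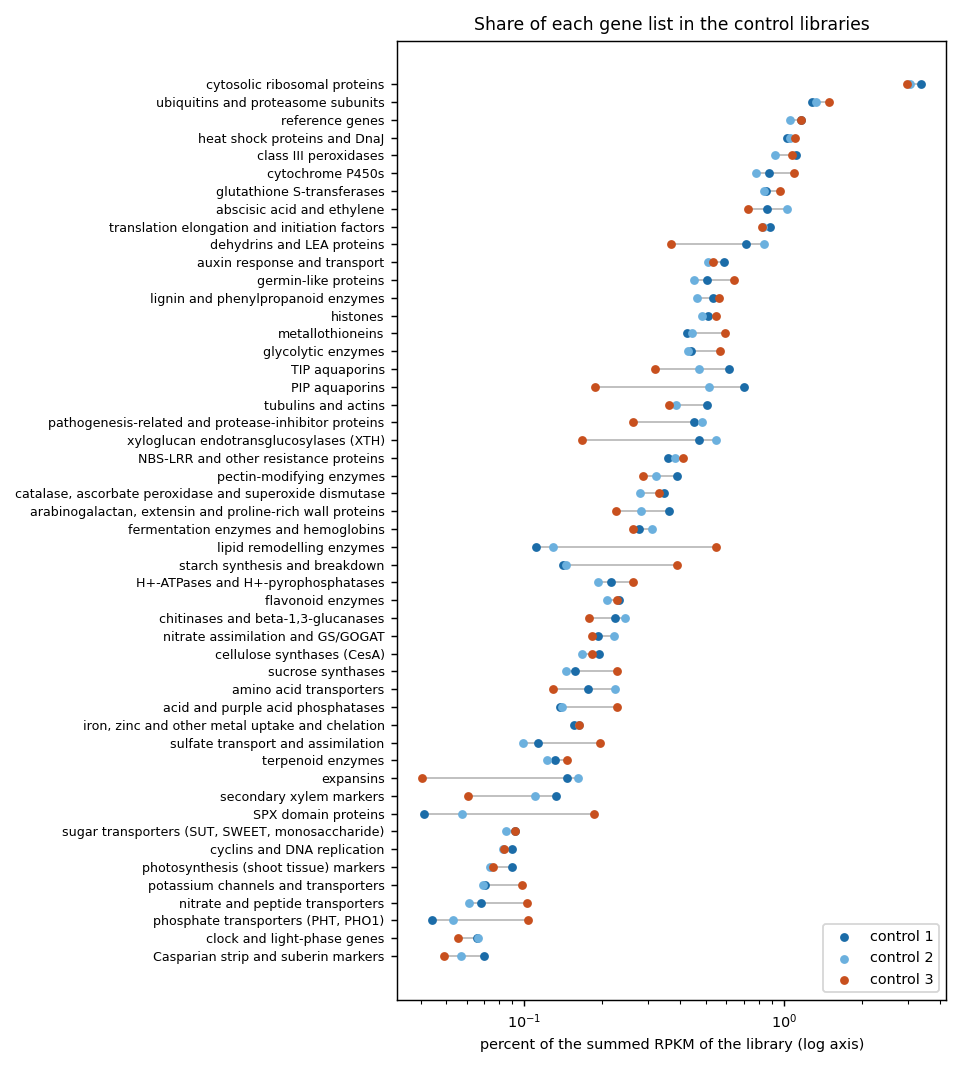
Share of the summed RPKM held by each functional list with a mean share of at least 0.05%, in control 1, control 2 and control 3, on a log axis. Ribosomal proteins lead at 3.39%, 3.06% and 2.97%, and the points of most lists lie close together, while those of PIP and TIP aquaporins, XTH, expansins, SPX, lipid remodelling and starch are spread, with control 3 at one end.

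Symbiosis genes varied in level, and the levels of the groups named here overlapped. Genes of the early signalling steps were read in these uninoculated roots. Cs1g20760, annotated as symbiosis receptor-like kinase, which in legumes acts in the signalling pathway shared by mycorrhiza and nodulation, had 18.6, 19.5 and 24.7 RPKM in controls 1, 2 and 3, and the GRAS genes Cs1g17530 (NSP1-like) and Cs3g19370 (NSP2-like) had 18.9, 11.8 and 36.9 RPKM and 3.95, 1.71 and 33.6 RPKM. Cs4g19460, matched to CCD8, an enzyme that makes the precursor of strigolactones, had 1.03, 0.660 and 11.8 RPKM. The NSP2-like and CCD8 genes were low in controls 1 and 2 and higher in control 3, at 11.9 and 13.9 times the mean of the others. By contrast, 10 of the genes that the study names as active in colonized roots had few reads. Of the 10, 4 had no read in any control library, and together they had 8, 5 and 11 reads. The phosphate transporter genes Cs7g29450 and Cs9g18560, related to the symbiotic PT4 of Medicago truncatula, had 2, 1 and 0 reads and 0, 0 and 0 reads. The largest count, 9 reads in control 3, belonged to Cs1g21320 (FatG). A further 8 such genes, added after their values were seen, were read more. The cysteine protease genes Cs2g15480, Cs2g15490 and Cs2g15700 had no read, but 4 of the 8 had a mean of at least 1 RPKM and 0 one of at least 10 RPKM, with 117, 105 and 202 reads in all. The highest was orange1.1t00603, taken as the ortholog of the N-acetylglucosamine transporter NOPE, with 2.55, 1.67 and 7.36 RPKM and its highest level in control 3. The study called such genes by comparing colonized roots with these same control libraries, so low levels here were favoured by that choice. The levels of both sets are thus a description and cannot check the label.

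Gene Ontology (GO) terms gave a coarser account. A process term was attached to 6623 genes (30.6%), which held 36.4% of the summed RPKM. Shares of terms do not add up, because a gene can carry several. Among process terms with at least 50 genes, the largest shares after the general term metabolic process were those of gene expression, with 2.89% ± 0.175 (SD, n = 3), response to stress, with 2.40% ± 0.307, and response to stimulus, with 2.29% ± 0.241. The median member of gene expression was at 11.1 RPKM and that of response to osmotic stress at 13.0 RPKM, both above the median over all genes. Among component terms, plastid held 5.04% ± 0.133 and membrane 4.50% ± 0.428. Among function terms, structural molecule activity had a median member of 16.1 RPKM.

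Genes were also grouped by mean level, into 1 to 5, 5 to 20, 20 to 100, 100 to 500 and at least 500 RPKM. In this order the median SD over the 3 libraries was 25.8%, 17.4%, 17.7%, 25.9% and 22.9% of the mean. Over controls 1 and 2 alone it was 14.8%, 8.79%, 8.26%, 11.4% and 9.12%, while counting error alone gives 16.5%, 7.95%, 4.57%, 2.48% and 1.19%. The spread thus fell from the lowest class to the next and was higher again from 100 RPKM, whereas counting error fell throughout. A median SD over so few libraries lies below the true SD, the more so for controls 1 and 2 alone. The figures are therefore not on one scale, and those of the lower classes do not tell whether spread exceeded counting error. From 100 RPKM counting error was far below the spread between controls 1 and 2. The most even gene of at least 50 RPKM was Cs3g11320, related to the DNA repair protein DRT102, at 97.3, 96.3 and 97.6 RPKM. It was followed by genes such as Cs5g14030 (hypothetical, 50.1, 50.9 and 50.6 RPKM), Cs2g07320 (transcription regulator, 90.7, 92.0 and 90.6 RPKM), the thioredoxin-dependent peroxidase Cs8g10680 (161, 164 and 164 RPKM) and the ubiquilin Cs1g26430 (49.8, 49.6 and 50.7 RPKM). Families commonly used as references were not especially even. Among 43 actin, tubulin, EF1, GAPDH, polyubiquitin, PP2A, TIP41, SAND and cyclophilin genes of at least 10 RPKM the median SD was 15.0% of the mean, against 17.8% for all 6598 genes of that level, with a range from 0.709% to 45.9%. The cyclophilin Cs8g09220 had a mean of 512 ± 159.5 RPKM (SD, n = 3), and the polyubiquitin-like gene Cs4g11190 had 311, 319 and 147 RPKM in controls 1, 2 and 3.

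Single-library differences of at least 4-fold from both other libraries were almost all in control 3. Among 16102 genes, 161 (1.00%) were that far above in control 3 and 196 (1.22%) below. In controls 1 and 2 there was 1 gene above and 1 below each, 0.00621% of genes in each of these 4 counts. Of the genes that differed in control 3, 48 of those above and 80 of those below had no text naming a function, which is 29.8% and 40.8%, against 40.8% of all genes with a mean of at least 10 reads. Among genes of at least 10 RPKM, the furthest above were orange1.1t01705 and orange1.1t01704, neighbours by identifier without a Blast match, with 1, 0 and 1165 reads and 0, 0 and 266 reads in controls 1, 2 and 3. In Gv 1, 2 and 3 they had 0, 0 and 69 reads and 0, 1 and 14 reads, so that both were read almost only in the libraries numbered 3. Cs5g07854, matched to a pollen allergen of the beta-expansin family, had 1.94, 0.798 and 114 RPKM, so that this relative of the expansins was high in the library where the expansin list was low. The ADP-glucose pyrophosphorylase gene Cs8g07230 was also among the 5 genes furthest above. The 5 genes furthest below included a pair of DREB-type genes. The CBF/DREB-like gene Cs5g10240, a transcription factor known from cold acclimation, had 50.2, 96.9 and 0.420 RPKM, and the CRT/DRE binding factor Cs9g16810 had 54.9, 113 and 1.19 RPKM. They also differed between controls 1 and 2, with Cs5g10240 in control 2 at 1.93 times and Cs9g16810 at 2.06 times the level of control 1. The XTH 23 gene Cs4g03145 had 41.9, 83.5 and 0.703 RPKM and was another of them.

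**Figure D4:**
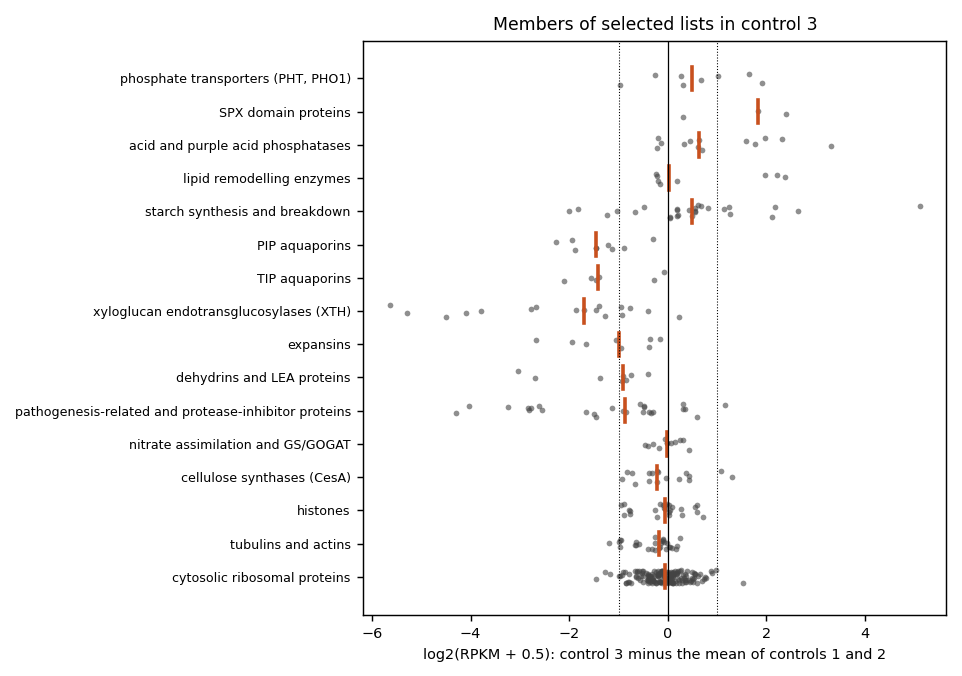
Difference of log2(RPKM + 0.5) between control 3 and the mean of controls 1 and 2 for each member of 16 lists with a mean of at least 10 reads (points) and the list median (orange bar); dotted lines mark 2-fold. SPX genes and several starch and lipid genes lie to the right, PIP, TIP, XTH and LEA genes to the left, and ribosomal protein genes around 0.

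Controls 1 and 2 had few genes far from both other libraries. The U-box gene Cs2g17810, of a family of ubiquitin ligases, had 65.4, 219 and 9.96 RPKM in controls 1, 2 and 3 and was one of the 5 genes of at least 10 RPKM furthest above in control 2. The XTH gene Cs8g15720 had 143, 68.5 and 27.1 RPKM and expansin 3 (Cs7g03630) 36.9, 11.6 and 5.06 RPKM, both highest in control 1. The nitrate transporter Cs8g16000 had 2.96, 13.1 and 21.9 RPKM and the cinnamoyl-CoA reductase orange1.1t02755 5.04, 14.2 and 30.8 RPKM, both lowest in control 1, while MYB82 (Cs4g18250) with 15.6, 4.70 and 31.3 RPKM was lowest in control 2.

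The library numbered 3 in the colonized group also stood apart from its own group, in 2.83% of genes at least 2-fold above both other Gv libraries and in 3.69% below. Its values were set beside those of control 3 for that reason, and no sample is shared between the groups. The labels do not say that a number marks a common harvest or extraction, and whether it does was not tested. Of the 161 genes far above in control 3, 87 (54.0%) were at least 2-fold above in Gv 3, and of the 196 far below, 145 (74.0%) were at least 2-fold below. The aquaporin, stress and clock genes given next were low in both. PIP2.1 (Cs8g16640) had 1047, 1050.1 and 305 RPKM in Gv 1, 2 and 3, the CBF/DREB-like gene Cs5g10240 had 23.1, 27.4 and 1.55 RPKM, and GIGANTEA (Cs3g21790), a clock protein whose transcript cycles over the day, had 39.2, 44.3 and 7.86 RPKM against 34.0, 39.2 and 9.27 RPKM in the controls. The clock gene Cs5g16360 (APRR5-like) had 37.7, 36.8 and 4.12 RPKM against 23.1, 24.9 and 4.93 RPKM. These were the 2 of 11 clock and light-phase genes at least 2-fold below in control 3, while 1 was 2-fold above and 4 were highest there. The time of day of each harvest is not given in the sources used here, and its part in these values was not tested. The 2 abundant genes without function text that set control 3 apart also moved in Gv 3, with 4786, 3998 and 1218 RPKM for Cs2g16830 and 1498, 1374 and 3435 RPKM for orange1.1t05863. Several phosphate genes did not share this pattern. The GDPD gene Cs2g13910 had 366, 381 and 431 RPKM, the SPX gene Cs4g17870 146, 145 and 111 RPKM and the phosphatase Cs1g18540 98.9, 99.1 and 119 RPKM in Gv 1, 2 and 3, so that their high level in control 3 had no counterpart of that size in Gv 3. The purple acid phosphatase gene Cs3g25470, with 5.09, 4.84 and 5.63 RPKM, was likewise without one. The phosphate transporter gene Cs9g10540, less than 2-fold above in control 3, was highest in Gv 3 as well, with 67.3, 83.6 and 146 RPKM. The ADP-glucose pyrophosphorylase gene Cs8g07230 had 10.6, 12.4 and 53.5 RPKM, the NSP2-like gene Cs3g19370 4.58, 5.96 and 20.0 RPKM and the dehydrin Cs3g26970 1181, 909 and 486 RPKM in Gv 1, 2 and 3. Among the lipid remodelling genes, 0 of the 3 that were 2-fold above in control 3 were so in Gv 3. The same count was 0 of 2 for SPX genes, 1 of 5 for acid phosphatases and 1 of 2 for phosphate transporters. Of the PIP genes 2-fold below in control 3, 4 of 6 were so in Gv 3. The Gv group differs from the controls by its fungus as well, so these values describe single libraries and compare no treatment.

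**Figure D5:**
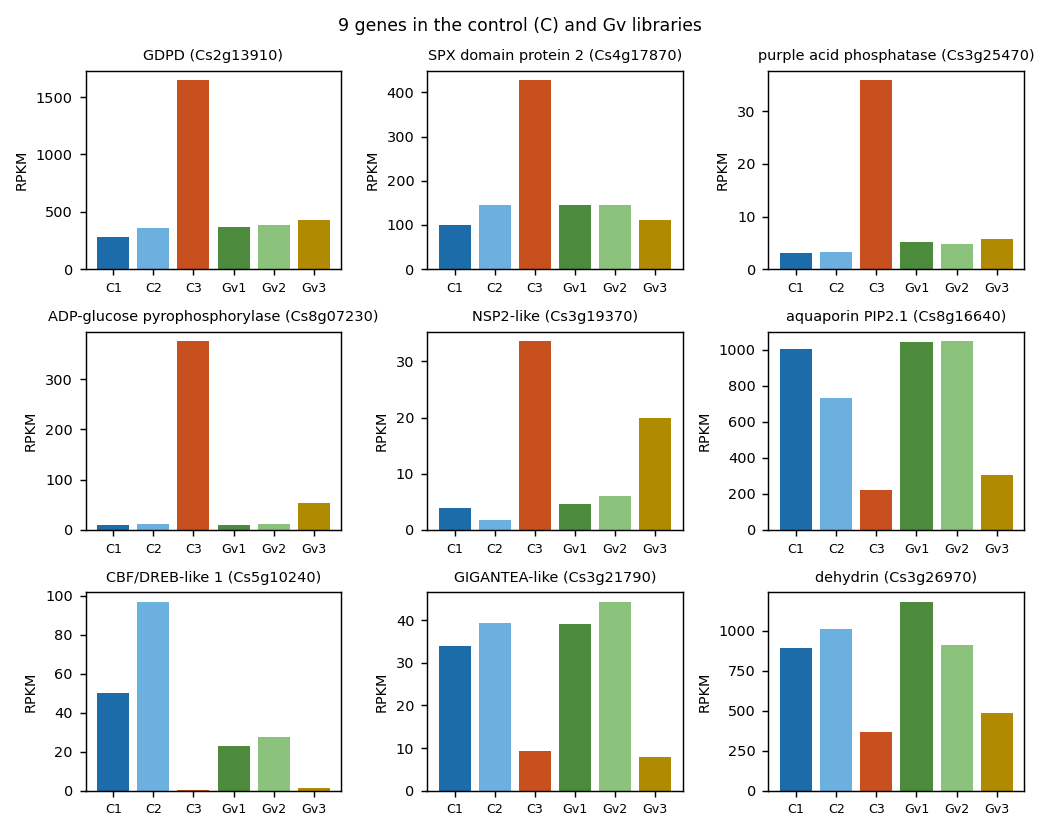
Level (RPKM, linear axis from 0) of 9 genes in control 1, 2 and 3 (C1 to C3) and Gv 1, 2 and 3. GDPD, SPX domain protein 2 and purple acid phosphatase are high in C3 alone, ADP-glucose pyrophosphorylase and NSP2-like are high in C3 and less so in Gv3, and PIP2.1, CBF/DREB-like 1, GIGANTEA-like and dehydrin are low in C3 and Gv3.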

How the data were processed

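RNA-seq of lateral roots was carried out by the authors with oligo(dT)-selected mRNA on an Illumina HiSeq instrument. Reads were aligned by the authors to the C. sinensis genome with SOAP2, with at most 2 mismatches, and the number of uniquely aligned reads per gene was deposited as counts, not normalized. The deposited RPKM values are these counts scaled by listed gene length and reads on genes, and the deposited percent coverage is the share of the length under reads. Library strandedness and the annotation version are not given in the sources used here, so overlapping and antisense genes cannot be told apart.

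The 3 control tables were joined on the gene identifier in Python 3.11.15 with pandas, and a gene not listed was taken as 0 reads. RPKM was averaged over the libraries, with SD and n = 3. Since no group was compared with another, no test was run, and the Gv libraries served for side-by-side values only. Functional lists (59) were made by matching the annotation text, with KEGG text used at an E value of at most 1e-30 where the Blast text names no function. The lists and the genes described were chosen with earlier results of these data known, and list patterns were corrected after their matches were read. A gene was called different in a library when RPKM + 0.5 was at least 4-fold (or 2-fold) from both others, among genes with a mean of at least 10 reads. The coefficient of variation came from edgeR 4.0.16 in R 4.3.3, with its expression filter and TMM factors, and was tested on simulated data. Scaling by TMM moved no library by more than 5%.

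Genes named were the 25 most abundant, the top 3 of each list, the 5 furthest above and below in each library, the 10 most even, the symbiosis genes and the reference genes. Further members of the phosphate transporter, acid phosphatase, lipid, starch, clock and LEA lists, Cs1g18540, Cs2g07720 and 8 further symbiosis genes were named after their values were seen. Alternatives were other read minimums and pseudocounts, reads without division by length, Blast text alone, other normalization and each library left out. Counts of reads cover counting error only, and p-values were not computed.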

Additional observations from a re-analysis of the deposited data

How the results depend on the processing

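No paired analysis was possible because only the control group was described and no test between groups was run. Without one library at a time, the common coefficient of variation ranged from 14.1% to 36.6%, the lowest without control 3, against 30.2% over all. The share of the 25 most abundant genes was 7.77% in reads without division by length and 8.66% over the covered length, against 12.2%, and 17 and 19 of the 25 genes remained among the 25. For 50% of the summed RPKM, 1739 genes were needed over the covered length. At 2-fold, control 3 was above in 645 genes and below in 964, and controls 1 and 2 together differed in 282. Their 4 genes at 4-fold became 22 with a pseudocount of 0.1, 7 with TMM scaling, 2 with a mean of at least 50 reads and 31 with no filter. With only 2 libraries compared, an alternative chosen after seeing the data, control 3 was 4-fold below in 278 to 388 genes. No other count over all genes moved by more than 1.5 times. Without division by length, shares moved by over 1.5 times to 0.246% for TIP, 0.308% for LEA, 0.222% for germin-like, 0.491% for glutathione S-transferase, 0.211% for pathogenesis-related, 0.799% for ubiquitin, 0.345% for cellulose synthase, 0.345% for sucrose synthase, 0.358% for starch, 0.212% for terpenoid and 0.254% for XTH genes. With Blast text alone the shares were 2.05% for ribosomal proteins, 0.268% for glycolysis and 0.207% for XTH. The largest such moves by ratio were to 0.00129% from 0.00793% for ammonium transporters and to 0.0555% from 0.168% for acid phosphatases. Without control 3 the SPX, lipid, starch and strigolactone shares moved as much, the first to 0.0492% from 0.0946%, and without control 2 the phloem share did. Depth limits genes under about 1 RPKM, where few reads were counted.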
